A study of Mus musculus with 6 samples.

Results

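The aminoacyl-tRNA synthetases, the enzymes that attach each amino acid to its transfer RNA (tRNA), were described here by their mRNA levels in sorted mouse bone marrow cells. The 36 genes were taken by name from a list of synthetases, with earlier results of these data known. All 36 were found among the 28987 genes of the table. Of these, 20 encode enzymes of the cytosol and 16 encode enzymes of the mitochondrion. All 6 libraries came from C57BL/6 mice carrying mutations of CBL, a ubiquitin ligase, and RUNX1, a blood transcription factor, so the controls carried the mutant genotype too. The mice received Mdivi-1, a compound used to block the mitochondrial fission protein DRP1, or the vehicle alone. Stem and progenitor cells of the marrow (HSCPs) were taken by positive selection for CD117, the KIT receptor, and the mutant clone was then sorted by flow cytometry, which gave 1 library with vehicle and 1 with Mdivi-1. Mutant Ly6G+ myeloid cells, a population rich in neutrophils and their precursors, were sorted from marrow as well and gave 2 libraries per arm. Not given in the sources used here were age, dose, duration and the way the mutations were introduced. Marrow was taken from single mice, but no label links a library to its animal. The p-values below therefore rest on the spread among libraries, which may be technical.

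Each synthetase pairs 1 amino acid with its tRNAs, and the cell runs separate sets for translation on cytosolic ribosomes and on the ribosomes inside mitochondria, which make only a few subunits of the respiratory chain. Several cytosolic enzymes sit in a large multisynthetase complex held together by scaffold proteins, and many cytosolic synthetase genes are known targets of the transcription factor ATF4, the effector of the integrated stress response, when amino acids are short. In the marrow, progenitors divide and grow, whereas maturing neutrophils stop dividing and lose much of their ribosome content.

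The values are in TPM, each gene's share of all transcripts corrected for transcript length, so levels can be compared between genes. The 6 libraries summed to between 963243 and 979168 TPM and held between 11456 and 11930 genes at 1 TPM or more. TPM keeps no read totals, so the depth behind a value is unknown and counting error could not be computed. The sorts were checked on their surface markers. Kit was at 72.2 and 64.9 TPM in the HSCP vehicle and Mdivi-1 libraries and between 8.73 and 14.1 TPM in the Ly6G+ libraries. Ly6g was at 187 and 90.1 TPM in the HSCP libraries and between 642 and 840 TPM in the Ly6G+ libraries. The HSCP libraries also held neutrophil transcripts, since 12 neutrophil markers summed to 95800 and 86636 TPM there against 256629 to 266848 TPM in Ly6G+ cells.

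Synthetase mRNAs spanned a wide range of levels. In HSCPs the highest mean levels were those of Vars, the valine enzyme, at 159 TPM, and Kars, the lysine enzyme, at 131 TPM. Nars (asparagine) followed at 114 TPM, Farsa (a subunit of the phenylalanine enzyme) at 112 TPM and Dars (aspartate) at 111 TPM. In Ly6G+ cells the order was different: Dars led at 78.1 ± 4.15 TPM (SD, n = 4 libraries over both treatments), followed by Lars2 at 66.6 ± 13.2, Nars at 65.8 ± 1.51, Qars (glutamine) at 63.7 ± 5.35 and Vars at 46.5 ± 9.18. Lars2, Nars and Qars differed from each other by less than their spread. Mitochondrial members were mostly lower, down to Wars2 (tryptophan) at 2.86 TPM in HSCPs and Ears2 (glutamate) at 1.23 ± 0.162 TPM in Ly6G+ cells.

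**Figure D1:**
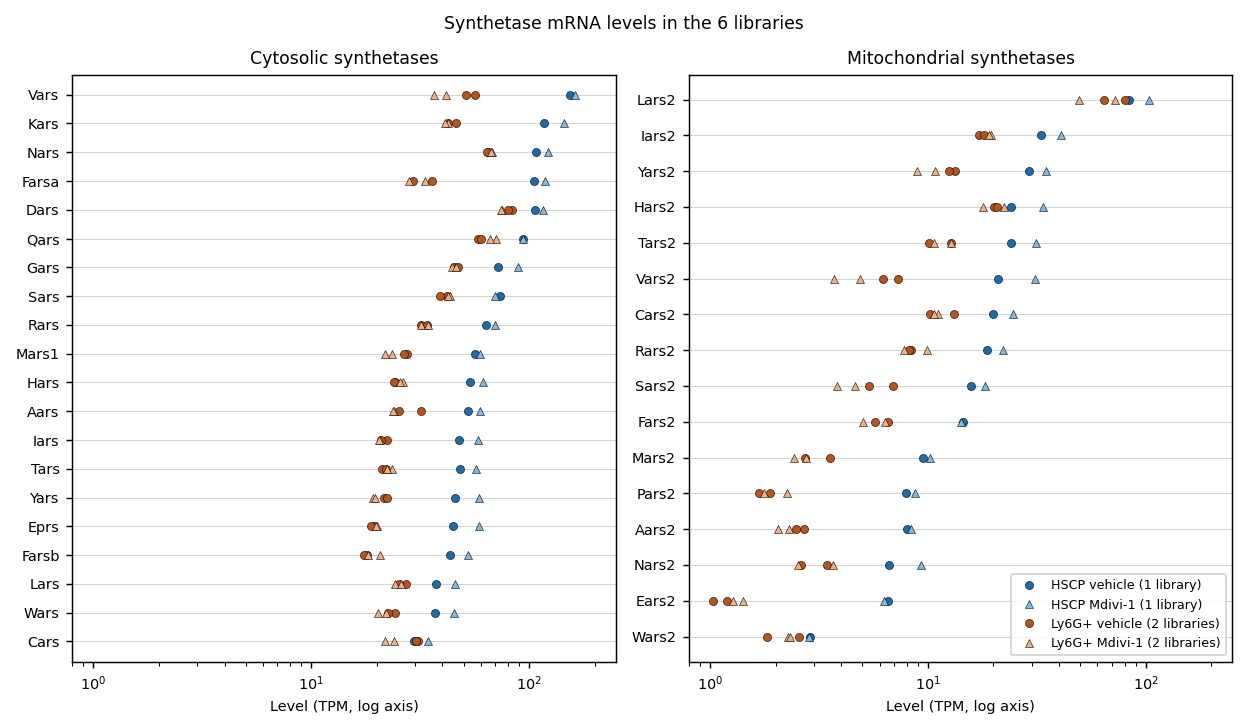
Level of each synthetase mRNA (TPM, log axis) in each of the 6 libraries, cytosolic members on the left and mitochondrial members on the right, ordered by the mean of the HSCP libraries. In 35 of 36 genes both HSCP libraries (blue) lie to the right of all Ly6G+ libraries (brown), and Cars is the exception.

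Between the populations, the synthetases were lower in Ly6G+ cells. In a limma test over all 6 libraries with treatment as a covariate, 33 of 36 members passed an adjusted p of 0.05 as lower in Ly6G+ cells and 0 as higher, where 50.3% of the 12338 genes tested were called lower and 22.2% higher. Both HSCP libraries lay above all 4 Ly6G+ libraries in 35 members, a pattern found in 52.5% of all genes tested. All 36 members passed the filter on low values (at least 1 TPM in at least 2 libraries). The median difference, Ly6G+ minus HSCP on the log2(TPM + 1) scale, was -1.16 over the members and -0.35 over all genes. Differences on this scale are smaller than plain ratios for genes with few TPM. Bulk RNA cannot tell fewer cells of a type from less RNA per cell.

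The background itself depended on scaling. With libraries scaled by the median of ratios, the all-gene median was -0.013, and 34.1% of genes were lower and 33.7% higher. With upper-quartile scaling it was -0.066, and 36.6% were lower and 31.8% higher. Under these scalings 30 and 32 of the 36 members passed the threshold as lower in Ly6G+ cells. In the values as deposited, the members' median minus the all-gene median was -0.82.

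Among cytosolic members, 19 of 20 passed the threshold as lower in Ly6G+ cells, beside 50.3% of all genes tested. All 20 differences were below 0, with a median of -1.12. Farsa was at 105 and 119 TPM in the vehicle and Mdivi-1 HSCP libraries. In Ly6G+ cells it was at 29.3 and 35.6 with vehicle and 33.4 and 28.2 with Mdivi-1. The 2 populations did not overlap, and the difference was -1.79 (SE 0.12, adjusted p = 3.12e-05). Its partner subunit Farsb differed by -1.32 (SE 0.083, adjusted p = 2.86e-05), and the ratio of Farsa to Farsb mRNA was 2.42 and 2.25 in the HSCP libraries and 1.55 to 2.03 in the Ly6G+ libraries. Vars was at 155 and 162 TPM in HSCPs and, in Ly6G+ cells, at 56.7 and 51.4 with vehicle and 41.3 and 36.6 with Mdivi-1, a difference of -1.77 (SE 0.13, adjusted p = 5.05e-05). The gene lies at chr17:35000987-35016322 on the plus strand of mm10, and its mitochondrial partner Vars2 lies on the minus strand of the same chromosome at chr17:35655634-35667592.

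The 8 synthetases of the multisynthetase complex were Eprs, Iars, Lars, Qars, Mars1, Kars, Rars and Dars. All 8 passed as lower in Ly6G+ cells, beside 50.3% of all genes tested, with a median of -1.09. Kars, whose transcripts also give the mitochondrial lysine enzyme, was at 117 and 144 TPM in HSCPs and between 41.0 and 46.0 in the 4 Ly6G+ libraries (-1.57, SE 0.10, adjusted p = 2.95e-05). Eprs, the fused glutamate and proline enzyme, was at 44.7 and 59.0 TPM in HSCPs and between 18.7 and 20.1 in Ly6G+ cells (-1.36, SE 0.091, adjusted p = 3.57e-05). The smallest differences in the complex were those of Dars (-0.50, adjusted p = 0.000914) and Qars (-0.56, adjusted p = 0.000476), and neither passed once libraries were scaled by the median of ratios (-0.13 with adjusted p = 0.105 for Dars, -0.18 with adjusted p = 0.0814 for Qars). The complex's scaffold genes were lower in 3 of 3 cases: Aimp2 by -1.81, Eef1e1 by -1.70 and Aimp1 by -0.71.

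Outside the complex, Yars (tyrosine) differed by -1.29, Tars (threonine) by -1.20, Hars (histidine) by -1.16 and Aars (alanine) by -1.07. Wars (tryptophan) differed by -0.85, Gars (glycine, serving both compartments) and Nars by -0.79 each and Sars (serine) by -0.76, all past the threshold. Cars, the cysteine enzyme, was the one cytosolic member that did not pass. It was at 29.7 and 34.3 TPM in HSCPs and, in Ly6G+ cells, at 30.8 and 30.1 with vehicle and 21.8 and 24.1 with Mdivi-1. The populations overlapped, and the difference was -0.27 (SE 0.14, adjusted p = 0.124). Without the HSCP Mdivi-1 library it was 0.032, and without the HSCP vehicle library it was -0.56 (adjusted p = 0.0047).

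**Figure D2:**
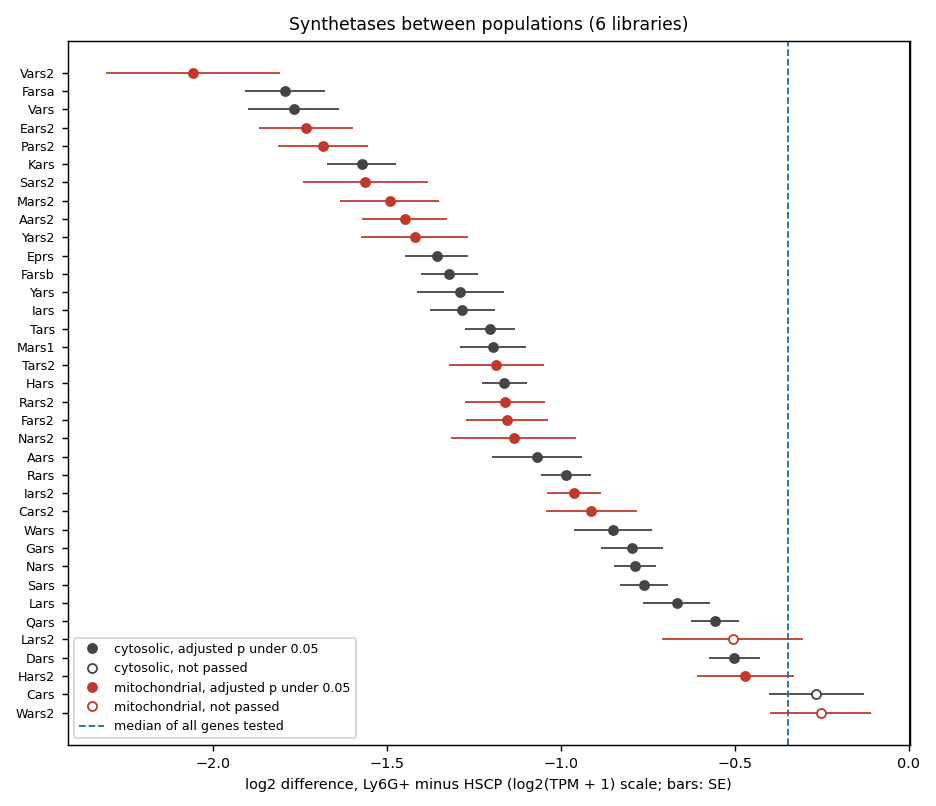
Difference of each synthetase between populations, Ly6G+ minus HSCP, on the log2(TPM + 1) scale over 6 libraries, with bars for the standard error and filled points for an adjusted p under 0.05. Points run from -2.06 for Vars2 to -0.25 for Wars2, and the dashed line marks the median of all genes tested at -0.35.

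Among mitochondrial members, 14 of 16 passed the threshold as lower in Ly6G+ cells, beside 50.3% of all genes tested. All 16 differences were below 0, with a median of -1.17. Vars2 was at 21.1 and 31.02 TPM in HSCPs and, in Ly6G+ cells, at 6.23 and 7.29 with vehicle and 3.71 and 4.90 with Mdivi-1. This was the widest difference of any member on the log2 scale, -2.06 (SE 0.25, adjusted p = 0.000433). As a plain ratio of mean TPM the widest was that of Ears2, at 6.55 and 6.27 TPM in HSCPs and 1.04, 1.19, 1.28 and 1.42 in Ly6G+ cells, 5.19-fold higher in HSCPs. Vars2 was 4.71-fold higher in HSCPs by this measure, Pars2 (proline) 4.37-fold, Aars2 3.45-fold, Mars2 (methionine) 3.42-fold and Sars2 3.28-fold.

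A few mitochondrial members differed less. Hars2 was at 24.0 and 33.7 TPM in HSCPs and between 18.0 and 22.4 in Ly6G+ cells (-0.47, SE 0.14, adjusted p = 0.0215). This call held in 10 of 14 alternatives. Among those that lost it were scaling by the median of ratios (-0.11, adjusted p = 0.462) and by the upper quartile (-0.17, adjusted p = 0.268). Leaving out the HSCP Mdivi-1 library (-0.22) was another. Lars2, the mitochondrial leucine enzyme, was at 84.2 and 104 TPM in HSCPs and, in Ly6G+ cells, at 64.5 and 80.3 with vehicle and 49.3 and 72.2 with Mdivi-1. Both HSCP libraries were above all Ly6G+ libraries, yet the Ly6G+ replicates spread widely and the difference did not pass (-0.51, SE 0.20, adjusted p = 0.0616). It passed without the HSCP vehicle library (-0.79, adjusted p = 0.0413) and without the second Ly6G+ vehicle library (-0.61, adjusted p = 0.0353). It was smaller without the HSCP Mdivi-1 library (-0.22, adjusted p = 0.477) and with scaling by the median of ratios (-0.13, adjusted p = 0.566) or the upper quartile (-0.19, adjusted p = 0.416). Wars2 was at 2.88 and 2.83 TPM in HSCPs and between 1.83 and 2.55 in Ly6G+ cells (-0.25, SE 0.15, adjusted p = 0.160).

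The rest of the translation machinery was given from lists of related genes. Over all genes tested, 50.3% were called lower in Ly6G+ cells and 22.2% higher, with a median of -0.35. These lists were not tested with scaled libraries, where the all-gene median was -0.013 (median of ratios) or -0.066 (upper quartile). The 4 genes that complete mitochondrial tRNA charging, Gatb, Gatc and Qrsl1 (which make glutaminyl-tRNA from glutamyl-tRNA) and Mtfmt (which formylates the initiator methionyl-tRNA), were all lower in Ly6G+ cells, from -0.93 to -0.54. All 6 cytosolic elongation genes were lower, with a median of -1.25, among them Eef1g by -2.0 and Eef1a1, which delivers charged tRNA to the ribosome, by -1.32. All 9 mitochondrial translation factors were lower, with a median of -0.73, led by Tsfm at -2.02 and Tufm at -1.52. Of 5 tRNA editing genes and synthetase paralogues, 4 were lower, and Prorsd1 at 0.034 (adjusted p = 0.779) was not. The 10 genes of a proliferation list were lower too, with a median of -1.07, and their sum was 1988 and 2224 TPM in HSCPs and 1028 to 1112 TPM in Ly6G+ cells. Early granulocyte markers summed to 14542 and 15703 TPM in HSCPs and to between 1902 and 2042 TPM in Ly6G+ cells. The part of proliferation or of granulocyte stage in the synthetase difference was not tested.

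The balance between the compartments moved little in the sums over all members. Cytosolic synthetases summed to 1388 TPM in the HSCP vehicle library and 1577 in the HSCP Mdivi-1 library, and in Ly6G+ cells to 716 and 720 with vehicle and 696 and 677 with Mdivi-1. Mitochondrial synthetases summed to 326 and 401 TPM in HSCPs and, in Ly6G+ cells, to 179 and 197 with vehicle and 160 and 178 with Mdivi-1. Cytosolic over mitochondrial mRNA was 4.26 and 3.94 in HSCPs and 3.65 to 4.34 in Ly6G+ cells, so the populations overlapped. Lars2 alone held a large part of the mitochondrial sum, and without it the ratio was 5.75 and 5.32 in HSCPs and 6.16 to 6.38 in Ly6G+ cells, which did not overlap.

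For 13 amino acids the list held 1 cytosolic and 1 mitochondrial gene each. The cytosolic mRNA was the more abundant in all 6 libraries in 12 of these 13 pairs. Leucine was the exception, with Lars below Lars2 in every library at ratios of 0.445 and 0.438 in HSCPs and, in Ly6G+ cells, 0.421 and 0.314 with vehicle and 0.492 and 0.358 with Mdivi-1. The widest ratios of mean TPM in HSCPs were those of Wars to Wars2 and Nars to Nars2, both at 14.4, and the narrowest above 1 was that of Iars to Iars2 at 1.43. Iars2 had the least unique sequence of the members, with 76.4% of its 31-base stretches found in no other gene. Its transcripts overlap those of the neighbouring Rab3gap2. Iars and Aars followed at 85.3% and 85.6%, with most shared stretches in Gm4849 and Exosc6.

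The pairs of Aars, Cars, Mars1, Nars, Rars and Sars had higher ratios in all Ly6G+ libraries than in both HSCP libraries. Those of Hars, Iars and Wars were lower, and those of Lars, Tars, Vars and Yars overlapped. Rars over Rars2 separated narrowly, with at most 3.41 in HSCPs and at least 3.44 in Ly6G+ cells. So did Wars over Wars2, with at least 12.8 in HSCPs and at most 12.3 in Ly6G+ cells. Aars over Aars2 was 6.49 and 7.09 in HSCPs and 10.1 to 11.8 in Ly6G+ cells. Sars over Sars2 was 4.62 and 3.82 in HSCPs. In Ly6G+ cells it was 6.05 and 7.25 with vehicle and 9.35 and 11.1 with Mdivi-1, higher in every library than in either HSCP library. Hars over Hars2 went the other way, at 2.23 and 1.82 in HSCPs and 1.15 to 1.42 in Ly6G+ cells. The 2 genes overlap on opposite strands and shared 165 stretches of 31 bases, 6.68% of those of Hars and 3.82% of those of Hars2. Their ratio is therefore less certain. Nars over Nars2 was 16.1 and 13.1 in HSCPs and 18.3 to 26.6 in Ly6G+ cells. These pair shifts are descriptions and were not tested as differences between the partners. The share of other gene pairs that separate in this way was not computed. Among single genes, both HSCP libraries lay above all Ly6G+ libraries in 52.5% of all genes tested.

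**Figure D3:**
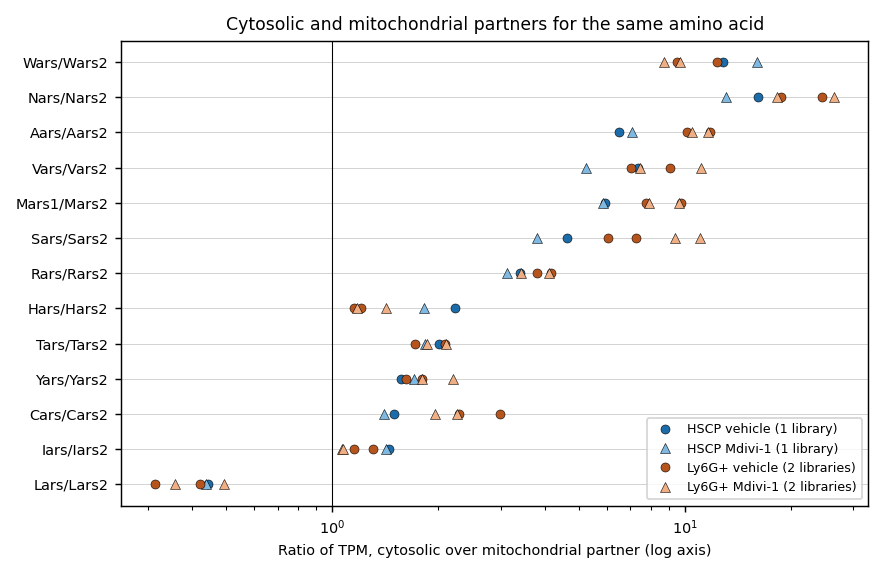
Ratio of cytosolic to mitochondrial TPM (log axis) for the 13 amino acids with 1 gene for each compartment, in each of the 6 libraries, with a line at equal levels. All pairs but Lars and Lars2 lie to the right of 1 in every library, and Sars over Sars2 runs from 3.82 in an HSCP library to 11.1 in a Ly6G+ Mdivi-1 library.

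Mdivi-1 against vehicle was tested in Ly6G+ cells, with 2 libraries per arm. No synthetase passed, with 0 of 36 called higher and 0 called lower by limma, where 2.46% of the 11775 genes tested were called higher and 4.24% lower. All 36 members passed the filter. The median change over the members was -0.062, beside -0.052 over all genes, and single members ranged from -0.56 for Vars2 to 0.19 for Qars. At an unadjusted p under 0.05 there were 7 members, 6 lower and 1 higher, where 25.7% of all genes reached this level. With 2 residual degrees of freedom, small changes cannot be separated from none.

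The members nearest the threshold were both lower with Mdivi-1. Vars, at 56.7 and 51.4 TPM with vehicle and 41.3 and 36.6 with Mdivi-1, differed by -0.46 (SE 0.090, adjusted p = 0.0520). Cars, at chr7:143557230-143600090 on the minus strand, was at 30.8 and 30.1 TPM with vehicle and 21.8 and 24.1 with Mdivi-1, a difference of -0.40 (SE 0.078, adjusted p = 0.0526). In both genes the arms did not overlap, as in 22 of 36 members and 57.7% of all genes tested. With a stricter filter of at least 5 TPM in at least 2 libraries, which tested 30 members, these were the 2 genes that passed as lower (adjusted p = 0.0361 for Vars and 0.0390 for Cars), where 6.22% of all genes tested were called lower. Over 12 alternatives the adjusted p ranged from 0.0361 to 0.190 for Vars and from 0.0390 to 0.204 for Cars.

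The arms of the other members at an unadjusted p under 0.05 likewise did not overlap. This adds nothing to the p-values by which these members were picked, and 57.7% of all genes tested had such arms. Vars2 was at 6.23 and 7.29 TPM with vehicle and 3.71 and 4.90 with Mdivi-1 (-0.56, adjusted p = 0.114). Sars2 was at 6.93 and 5.39 TPM against 4.65 and 3.84 (-0.45, adjusted p = 0.174), and Yars2, the mitochondrial tyrosine enzyme, at 13.3 and 12.5 against 10.7 and 8.89 (-0.36, adjusted p = 0.138). Mars1, the cytosolic methionine enzyme, was at 27.6 and 26.6 TPM against 23.4 and 21.8 (-0.25, adjusted p = 0.118). Qars was the one on the higher side, at 58.4 and 60.4 TPM against 70.1 and 66.0 (0.19, adjusted p = 0.145).

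Markers of other cell types differed between the same Ly6G+ arms, where 2.46% of all genes tested were called higher and 4.24% lower. B cell markers were lower with Mdivi-1 in 8 of 10 cases and summed to 214 and 214 TPM with vehicle and 89.8 and 81.9 with Mdivi-1. Megakaryocyte markers were lower in 7 of 8 cases (266 and 262 against 119 and 103 TPM), basophil and mast cell markers in 5 of 5 (484 and 490 against 162 and 171 TPM) and dendritic cell markers in 5 of 7 tested (597 and 631 against 342 and 331 TPM). Progenitor markers were lower in 3 of 9 tested, with sums of 109 and 113 against 77.3 and 76.3 TPM. Of 12 neutrophil markers, 5 were higher and 3 lower, from -0.65 to 1.21, while their sums of 266848 and 257982 against 256629 and 266740 TPM overlapped between the arms. No marker of these lists was at 0 in any library. In the remaining marker lists, 3 of 8 erythroid markers were lower, and of 8 monocyte markers 1 was higher and 1 lower. Of 5 plasma cell markers tested 1 was higher and 2 lower, and of 7 T and NK cell markers tested 1 was higher. Of 4 eosinophil and 5 early granulocyte markers, 0 were called. The part of these cells in the synthetase values was not tested.

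In HSCPs each arm was a single library, so the Mdivi-1 to vehicle ratio has no replicate check and no p-value. Of the 36 members, 32 had a ratio above 0 on the log2(TPM + 1) scale, where 54.8% of the 11504 genes at 1 TPM or more in both libraries did. A log2 ratio of at least 0.2 was found in 19 members upwards and 0 downwards, beside 18.6% and 16.6% of all genes. The median was 0.20 for cytosolic members and 0.25 for mitochondrial members, against 0.024 for all genes. Between replicate Ly6G+ libraries the same medians were -0.026 with vehicle and -0.027 with Mdivi-1 for cytosolic members, and 0.0067 and -0.0092 for mitochondrial members. The ratio exceeded the size of both Ly6G+ replicate differences of the same gene in 20 of 36 members and in 23.4% of all genes.

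The largest ratio was that of Vars2, at 21.1 TPM with vehicle and 31.02 with Mdivi-1 (0.54, 1.47-fold). Hars2 followed at 24.0 and 33.7 TPM (0.47), Nars2 at 6.64 and 9.30 (0.43), Eprs at 44.7 and 59.0 (0.39), Yars at 45.5 and 59.1 (0.37) and Tars2 at 24.1 and 31.3 (0.36). These members came from both compartments and from inside and outside the multisynthetase complex. The members below 0 were Sars (-0.068), Ears2 (-0.053), Fars2 (-0.032) and Wars2 (-0.016), and Qars was at 0.0049. Vars, the most abundant member, was at 155 and 162 TPM (0.068).

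Other transcripts differed between the same HSCP libraries. Neutrophil markers summed to 95800 TPM with vehicle and 86636 with Mdivi-1, megakaryocyte markers to 328 and 161, dendritic cell markers to 1137 and 714, eosinophil markers to 657 and 365 and progenitor markers to 480 and 417. Early granulocyte markers summed to 14542 and 15703 TPM, with 5 of 5 above 0 and a median ratio of 0.16. Proliferation genes summed to 1988 and 2224 TPM, with 10 of 10 above 0 and 4 at a log2 ratio of 0.2 or more. The part of these differences in the synthetase ratios was not tested, and with 1 library per arm treatment and library cannot be told apart.

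The treatment values of the 2 populations were compared directly. In 20 of 36 members the HSCP ratio was above 0 and the Ly6G+ change below 0, as for Vars2 at 0.54 and -0.56. This held for 28.7% of the 11047 genes with both values. The test of the difference between the populations' treatment effects called 0 of 36 members and 0% of the 12338 genes tested, with a smallest adjusted p of 0.257 among the members (Yars) and 0.0726 among all genes. At an unadjusted p under 0.05 it gave 11 of 36 members and 1398 of the 12338 genes tested (11.3%). This test takes the spread of the lone HSCP libraries from the Ly6G+ pairs.

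**Figure D4:**
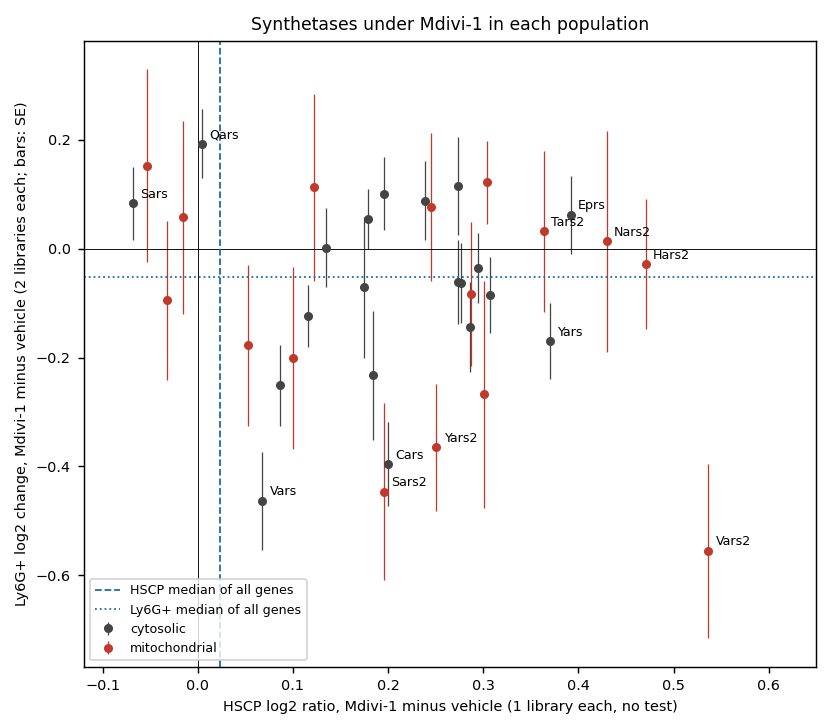
Mdivi-1 minus vehicle for each synthetase on the log2(TPM + 1) scale, with the HSCP ratio (1 library per arm, no test) on the horizontal axis and the Ly6G+ change (2 libraries per arm, bars for the standard error) on the vertical axis. Most points lie right of the HSCP median of all genes at 0.024, while in Ly6G+ cells they lie on both sides of the median of -0.052, and Vars2 is far right and lowest.

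Promoter sequence was examined because the cytosolic genes are known targets of ATF4. RefSeq windows of GRCm38.p6, the assembly of mm10, from 250 bases before to 50 bases from the start site on, were at hand for 27 members, 13 cytosolic and 14 mitochondrial. Those of Cars, Hars, Hars2, Lars, Nars, Pars2, Rars, Vars and Wars were not analysed here. The letters TGATGNAA, the core of the C/EBP-ATF response element bound by ATF4 with a C/EBP partner, were searched on both strands. They were found in 5 of 13 cytosolic windows and 0 of 14 mitochondrial windows, and in 3.97% of all 32851 windows. A match describes letters in a window and is no evidence of binding. The 5 genes are shown around the match, on the gene's strand from 5′ to 3′, with the matched letters or their reverse complement in capitals and at most 30 bases from the start site on. Aars spans chr8:111033690-111033871 (plus strand), Gars chr6:55037931-55038018 (plus), Iars chr13:49682097-49682159 (plus), Tars chr15:11399629-11399713 (minus) and Yars chr4:129189866-129189932 (plus).
Aars: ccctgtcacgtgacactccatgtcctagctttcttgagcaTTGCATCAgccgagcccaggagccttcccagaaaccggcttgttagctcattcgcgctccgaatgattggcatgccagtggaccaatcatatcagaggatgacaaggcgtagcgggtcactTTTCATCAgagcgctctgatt
Gars: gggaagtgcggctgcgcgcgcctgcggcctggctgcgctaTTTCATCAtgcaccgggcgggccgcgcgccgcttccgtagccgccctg
Iars: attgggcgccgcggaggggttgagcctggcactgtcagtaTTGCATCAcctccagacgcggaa
Tars: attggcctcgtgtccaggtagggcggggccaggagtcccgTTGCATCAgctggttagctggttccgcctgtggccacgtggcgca
Yars: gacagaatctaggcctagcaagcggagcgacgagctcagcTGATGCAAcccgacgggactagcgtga

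In Aars the letters occurred at 2 places, 112 bases before the start site and 9 bases after it. In Gars and Tars the match began 30 and 15 bases before the start site, and in Iars and Yars 7 and 3 bases after it. All 5 genes were in a list of 13 cytosolic synthetases known to respond to amino acid shortage, of which 8 had a window, and 0 of the 5 other cytosolic windows held the letters. The 5 genes were called lower in Ly6G+ cells in 5 of 5 cases, from -1.29 to -0.79, beside 50.3% of all genes tested. Their HSCP ratios lay between 0.18 and 0.37, and their Ly6G+ treatment changes lay between -0.23 and 0.089 with 0 of 5 called. The 7 cytosolic members outside the amino acid response list had an HSCP median of 0.17 and the 13 listed genes one of 0.24. The 16 mitochondrial members, with the letters in 0 of 14 windows, had one of 0.25. These medians come from 1 library per arm, and their differences were not tested.

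The E-box CACGTG, bound by MYC with MAX, was in the windows of Aars, Farsb, Iars, Tars and Ears2, and in 7.15% of all windows. The letters GCGCATGC, part of the NRF1 motif of nuclear genes for mitochondria, were in 3 of 14 mitochondrial windows (Rars2, Vars2 and Wars2), 0 of 13 cytosolic windows and 2.71% of all windows. CCGGAAGT, an ETS motif bound by GABP, was in those of Farsa, Mars1 and Rars2 and in 3.89% of all. TTCNNTTTC, the core of the interferon-stimulated response element, was in the Qars window alone and in 8.56% of all. Each was searched on both strands.

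Of 24 integrated stress response genes tested in Ly6G+ cells, 1 was higher with Mdivi-1 and 1 was lower, near the shares of all genes (2.46% and 4.24%). Ddit4, an inhibitor of mTORC1 signalling, was at 5.70 and 6.22 TPM with vehicle and 11.7 and 11.0 with Mdivi-1 (0.83, adjusted p = 0.0195). Mthfd2, a mitochondrial folate enzyme, was at 51.1 and 53.7 TPM against 38.8 and 41.4 (-0.38, adjusted p = 0.0452). Atf4 itself was at 112 and 125 TPM against 94.6 and 86.1 (-0.39, adjusted p = 0.0640). The arms did not overlap in any of the 3 genes, a pattern found in 57.7% of all genes tested.

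In the HSCP libraries, 12 of 25 stress response genes had a log2 ratio of 0.2 or more and 1 had a ratio of -0.2 or below, beside 18.6% and 16.6% of all genes, and 19 were above 0. The largest ratio was that of Asns, asparagine synthetase, at 8.32 TPM with vehicle and 20.3 with Mdivi-1 (1.19). Ddit4 was at 8.32 and 18.5 TPM (1.06), and the serine synthesis genes Psat1 and Phgdh had ratios of 0.50 and 0.49, while Atf4, named after its value was seen, was at 185 and 193 TPM (0.056). Between populations, 16 of 25 tested stress response genes were lower in Ly6G+ cells and 5 were higher, beside 50.3% and 22.2% of all genes, with Phgdh at -2.28 and Shmt2 at -2.02.

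Among genes of growth control, Myc was at 69.3 TPM in the HSCP vehicle library and 122 in the HSCP Mdivi-1 library (0.80), and between 12.5 and 14.9 in the Ly6G+ libraries (-2.64 between populations, adjusted p = 2.59e-05). Of 11 genes of the growth list, 8 were lower and 3 higher in Ly6G+ cells, beside 50.3% and 22.2% of all genes. Wars is known to be induced by interferon gamma. Of 11 interferon gamma response genes tested, 6 were lower with Mdivi-1 in Ly6G+ cells (4.24% of all genes). Among them were Cxcl10 (-1.49, adjusted p = 0.00652) and Irf8 (-0.59, adjusted p = 0.0134). Irf8 was also in the dendritic cell list, where 5 of 7 tested markers were lower in the same arms. The part of cell content in these values was not tested. Wars was at 24.3 and 22.6 TPM with vehicle and 22.1 and 20.2 with Mdivi-1 (-0.14, adjusted p = 0.347), and in HSCPs at 37.0 and 45.3 TPM (0.29), where 9 of 11 interferon genes had a log2 ratio of -0.2 or below (16.6% of all genes).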

How the data were processed

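RNA from 6 libraries was sequenced, and the authors deposited 1 table of gene values, used here as TPM. The submitters' processing notes name bcl2fastq, CASAVA 1.8, kallisto and the build mm10. Not given in the sources used here were the version of kallisto, its transcript annotation, the strand setting and the way transcripts were summed. The deposited table is called a count table, but the values have decimals and library sums are close to each other. Kallisto shares reads between similar transcripts, so genes that share sequence (Iars2 with Rab3gap2, Hars with Hars2) are less certain, and antisense partners cannot be separated. The same holds for Aars with Exosc6, Iars with Gm4849 and Vars2 with Gm20483. Of their 31-base stretches, 85.6%, 85.3% and 92.7% were found in no other gene. For Fars2, Cars2 and Farsb this share was 90.2%, 91.5% and 91.5%.

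GENCODE M21 gave a symbol to 27475 genes and none to 1512. Between any pair of libraries, 0 genes at 1 TPM or more had identical values. Tests used limma 3.58.1 in R 4.3.3 with a trended and robust prior on log2(TPM + 1). A gene was tested when 2 or more of the compared libraries reached 1 TPM. P-values are two-sided, with Benjamini-Hochberg adjustment over the whole tested table and a threshold of 0.05. The fits left 2 residual degrees of freedom for treatment in Ly6G+ cells, 3 between populations and 2 for the difference in effects. HSCP arms have 1 library each and were only described. The fits were tested on simulated data. Motifs were searched in RefSeq promoter windows of 300 bases on GRCm38.p6, and positions count the start site as 0.

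The members, the other gene lists and the tests were chosen with earlier results of these data known. Any member could be named. Each other list could give up to 4 genes per comparison, called genes with the largest changes before the most expressed, and in HSCPs the largest ratios. Kit and Ly6g check the sorts. Alternatives were pseudocount, filter, scaling, prior, covariate, replicate block and leaving out each library.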

Additional observations from a re-analysis of the deposited data

How the results depend on the processing

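In the Ly6G+ treatment test the 7 members at an unadjusted p under 0.05, and Wars, kept their direction under 12 alternatives. Others did not, since the number of members with a change above 0 was 15 and moved to between 13 and 17 (11 of the 30 tested with the 5 TPM filter). The count of members lower with Mdivi-1 was 0 in all of them but the 5 TPM filter, where it was 2 and fewer genes were tested. Leaving out any 1 Ly6G+ library called 0 members, but over all genes it brought the calls from 290 higher and 499 lower to between 17 and 116 higher and between 5 and 163 lower. Same-numbered Ly6G+ libraries did not deviate together (correlation -0.0306 over genes). This correlation of 1 difference per arm cannot decide whether the numbers mark a shared mouse, day or batch, and no label says so. With the replicate number as a block, 152 genes were called higher and 173 lower, and 0 members in either direction.

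Between populations the count of lower members ranged from 32 to 35 when 1 library was left out. The difference of Cars was -0.56 without the HSCP vehicle library and 0.032 without the HSCP Mdivi-1 library. It also reversed to 0.032 with vehicle libraries only, 0.10 with scaling by the median of ratios and 0.040 with the upper quartile, and Wars2 reversed to 0.017 with the median of ratios. None of the 5 reversed values passed, and the cause was not tested. The HSCP median of cytosolic members was 0.16 when scaled by the upper quartile. That of mitochondrial members was 0.21 by the upper quartile and 0.23 by the median of ratios. The test of the difference in effects called 0 members under each of its alternatives. Depth is unknown, so the precision of members near 1 TPM, such as Ears2 and Pars2 in Ly6G+ cells, could not be judged from reads.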
